A study of Mus musculus with 16 samples.

Results

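The prostatic epithelium has an inner layer of secretory luminal cells and an outer layer of basal cells that sits on the basement membrane. This account follows 9 genes that mark basal epithelial cells: Trp63, Bcl11b, Jag2, Krt5, Krt14, Krt15, Itgb4, Col17a1 and Lgals7. The genes were taken by name from a list of basal markers, and no threshold on their values was used to choose them. Earlier results of these data were known when they were chosen. All 9 were present among the 29535 genes of the expression table, and all 9 passed the filter on low values that left 16895 genes for testing.

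RNA sequencing was performed on poly-A selected RNA from whole mouse prostate in 16 samples. The mice were 12 months old and of a mixed background, given as hybrid 129/SvImJ and C57Bl/6J. Each carried +/+ (wild type) or -/- (mutant) as its genotype at 1 gene, and the labels name no Cre driver or cell type for the mutation. Treatment was vehicle or finasteride, which stops testosterone from being turned into dihydrotestosterone. Vehicle was given to 3 wild-type and 3 mutant samples, and finasteride to 5 wild-type and 5 mutant samples. Whether each sample was a separate mouse is not stated, and p-values therefore cover only the spread among these samples, which may be technical.

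As background, p63 (encoded by Trp63) is the transcription factor that specifies basal cells of stratified and glandular epithelia, and prostate basal cells do not form without it. Keratin 5 pairs with keratin 14 or keratin 15 to build the filament network of basal cells. These filaments attach to the basement membrane at hemidesmosomes, where integrin β4 pairs with integrin α6 and collagen XVII spans the membrane beside it. Jagged 2 is a ligand of the Notch receptors, which pass signals between neighbouring epithelial cells. Galectin-7 is a sugar-binding protein of stratified epithelia, and BCL11B is a transcription factor of skin keratinocytes and of T cells.

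All values are the deposited log2 expression values, and a change is a difference between group means on that scale. Levels are not scaled for gene length, so a level was compared between samples and not between genes. In 5 cases a library lay close to a weighted average of 2 other libraries of its own group, namely wild-type vehicle library 3, wild-type finasteride library 4, mutant vehicle library 3 and mutant finasteride libraries 3 and 4. The SD of the difference from such an average was 0.0704 to 0.0969 in those 5. The tests were therefore repeated on the other 11 libraries, and those adjusted p-values are given beside the full ones for members that passed. For the lists the counts called in the 11 libraries are given, and a list gene named below as changed passed there too unless its adjusted p is given. Summed values out of log2 were lower in mutant finasteride libraries (log2 totals 24.07 to 24.16) than in all others (24.31 to 24.55), and the 10 most abundant genes held 9.58% to 31.2% of a library. The summed log2 level of 7 seminal vesicle secretion genes ranged from 9.82 to 21.7 in wild type on vehicle, 9.40 to 14.3 in wild type on finasteride, 16.6 to 17.9 in mutants on vehicle and 16.7 to 21.5 in mutants on finasteride, and its part in the results was not tested. The prostate markers Pbsn and Hoxb13 were measured in every library, at 10.35 or above and 11.80 or above.

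The 250 bases before the RefSeq start were examined for the members that had a RefSeq promoter entry, which were 6 of 9. In Krt14, Jag2 and Lgals7, 0 bases of this window lay before every annotated start, and in Bcl11b 62 did. Matches in the windows of those genes are therefore not all in sequence upstream of the gene. The windows of Krt5 and Col17a1 are shown because they lie before the annotated starts of these genes and hold the motifs that were searched. They are in mouse build GRCm38.p6 on the minus strand, at chr15:101712906-101713155 for Krt5 and chr19:47692095-47692292 for Col17a1. The authors' build was mm9, per the submitters' processing notes, and no expression value was joined to these coordinates. Capitals mark a p53 family half-site, the kind of element that p63 binds, in Krt5, and the letters CATG and TATAAA in Col17a1.
Krt5: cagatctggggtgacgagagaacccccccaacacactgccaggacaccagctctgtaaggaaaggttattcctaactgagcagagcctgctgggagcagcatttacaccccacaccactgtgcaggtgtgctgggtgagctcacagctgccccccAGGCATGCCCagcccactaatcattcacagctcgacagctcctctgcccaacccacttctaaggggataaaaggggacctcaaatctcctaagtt
Col17a1: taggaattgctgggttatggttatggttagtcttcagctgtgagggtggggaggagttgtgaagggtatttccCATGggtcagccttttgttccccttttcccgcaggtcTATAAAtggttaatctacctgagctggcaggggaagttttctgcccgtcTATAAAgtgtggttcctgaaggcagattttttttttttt
The Krt5 half-site began 95 bases before the RefSeq start and overlaps a CATG match. Half-sites were searched only in the form with CATG at the centre. Forms with other letters there were not counted, so the share of windows with any half-site is not given. On either strand, the searched form was in 455 of 27025 mouse promoter windows (1.68%), and Krt5 was the only 1 of the 6 members with it. The Col17a1 window had TATAAA at 140 and 91 bases before the start, a motif in 13% of all windows, and CATG at 177 bases, in 54.1%. The Col17a1 window was cut short at its 3′ end so that it lies before every annotated start. CATG was also in the Krt14 window. The GC-box letters GGGCGG were in the Jag2 and Lgals7 windows and in 32.9% of all windows. TGANTCA (6.87% of all windows) and TGTTCT (16.2%) were in none of the 6. A match describes letters in this window and is not a measured binding site.

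The basal genes did not move as 1 group. On vehicle, 5 of 9 were higher in mutants than in wild type and none was lower (limma, adjusted p under 0.05), where 31.8% of all tested genes differed, 14.3% higher and 17.5% lower. On finasteride all 9 differed between genotypes, 8 higher in mutants and 1 (Krt14) lower, where 63.7% of tested genes differed, 33.9% higher and 29.7% lower. The drug split the list in both genotypes. In wild type 1 member rose and 3 fell, where 39.8% of tested genes changed, 17.9% up and 21.9% down. In mutants 2 rose and 2 fell, where 48.6% of tested genes changed, 26.3% up and 22.3% down. The shares of members called in the 2 drug comparisons were near those of all genes.

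A test of whether the drug's effect differed between genotypes (the interaction) called 6 of 9 members, 3 with a more positive and 3 with a more negative effect in mutants. It called 56.8% of tested genes, 30.2% and 26.6% in those directions, so the members' share was again near the background. The median change of the members was 0.89 for genotype on vehicle and 0.84 for genotype on finasteride, where the medians of all tested genes were -0.0019 and 0.02. It was -0.31 for finasteride in wild type and 0.02 for finasteride in mutants, beside -0.03 and -0.0022 in all tested genes, and 0.18 for the interaction, beside -0.0019. The comparisons share groups with each other, so the values below are given side by side and were not correlated.

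Fewer calls were made in the 11 libraries, which left 2 wild-type vehicle, 4 wild-type finasteride, 2 mutant vehicle and 3 mutant finasteride libraries. Smaller groups give larger SEs, so a call lost in the 11 libraries need not be a smaller difference. There 4 members were higher and 0 lower for genotype on vehicle (9.06% of tested genes called, 3.83% higher and 5.23% lower), and 6 higher and 1 lower for genotype on finasteride (41.1%, 22.4% and 18.7%). With the drug 0 members rose and 1 fell in wild type (8.55%, 3.56% and 5%), and 2 rose and 1 fell in mutants (20.3%, 11.3% and 9.06%). The interaction called 2 higher and 1 lower (29.4%, 17.4% and 12%). The counts of the gene lists below are to be read beside these shares of all tested genes, in 16 and in 11 libraries.

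As a description with no test, the libraries of the 2 groups did not overlap for 7 of 9 members in genotype on vehicle, all higher in mutants. That held for 55.3% of tested genes, 27.4% higher and 27.9% lower. For the drug in wild type it held for 6 members, 3 higher and 3 lower (35.3% of tested genes, 16.5% and 18.9%), and for the drug in mutants for 3, 2 higher and 1 lower (49.6%, 25.3% and 24.3%). For genotype on finasteride it held for 7 members, 6 higher and 1 lower (40.1%, 21.8% and 18.3%).

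**Figure D1:**
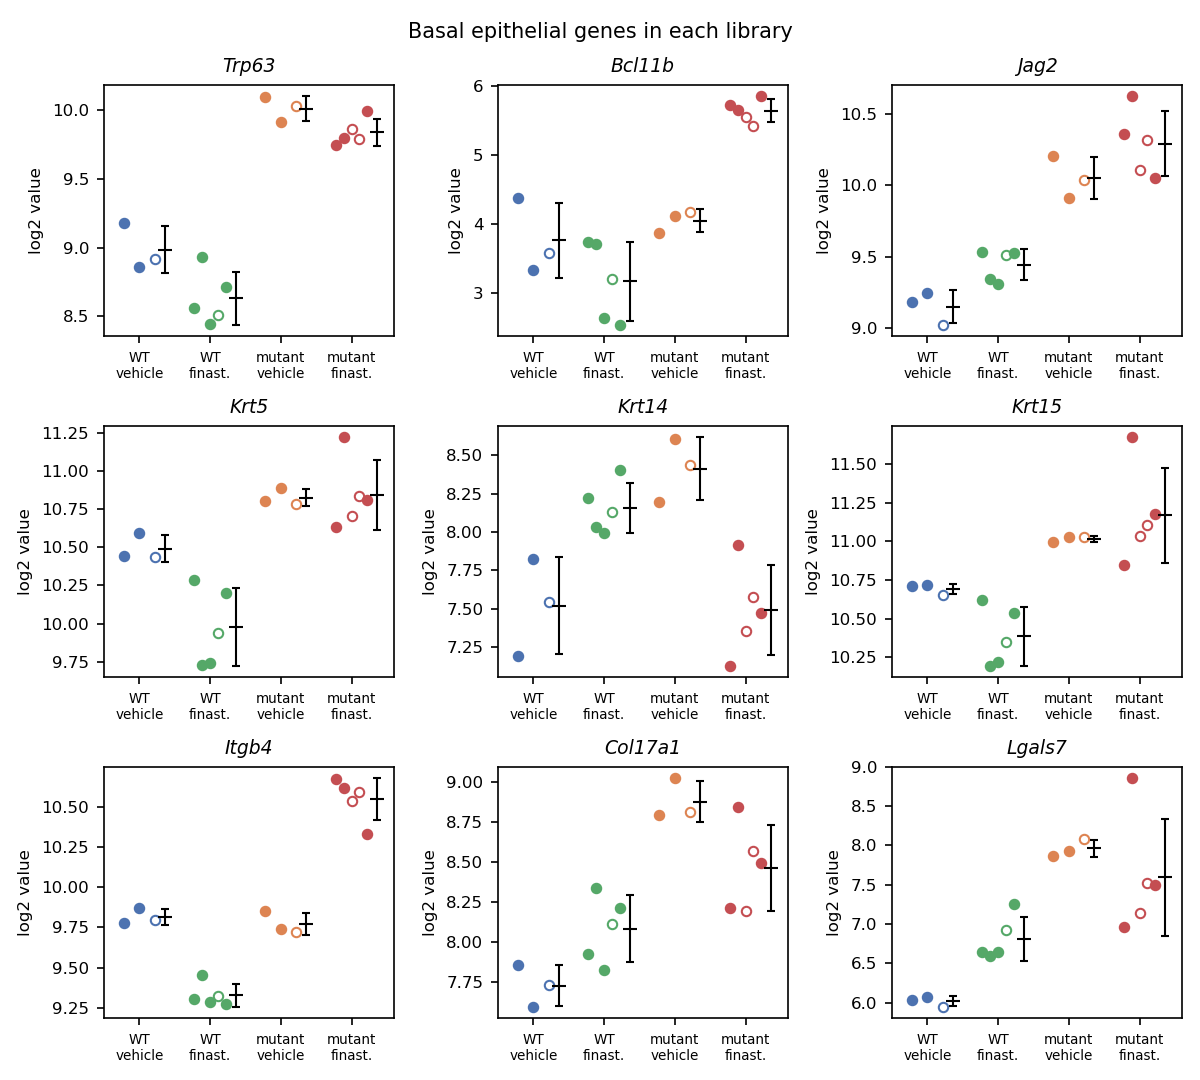
Deposited log2 value of each of the 9 basal genes in every library, by group (points; bars are the group mean ± SD; open circles are the 5 libraries close to an average of 2 others). Trp63 and Jag2 are higher in every mutant library than in any wild-type library, whereas Krt14 is highest in wild type on finasteride and mutants on vehicle.

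**Figure D2:**
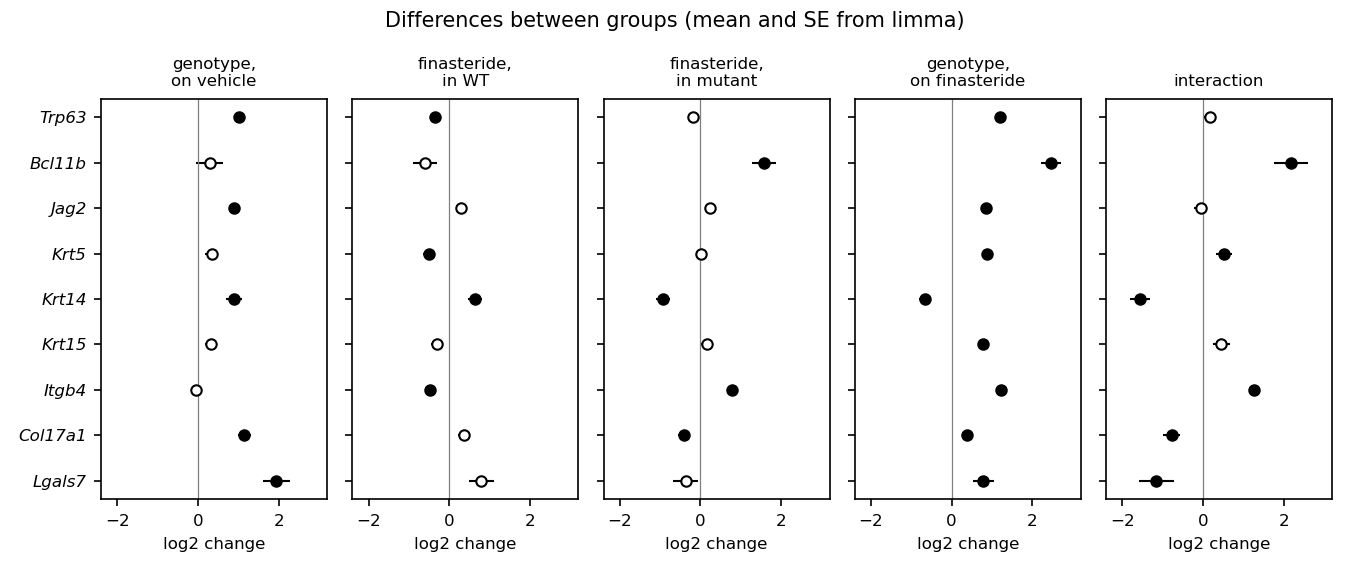
Log2 change with its SE from limma for each basal gene (rows) in the 5 comparisons (panels); filled points have an adjusted p under 0.05. In the genotype comparison on finasteride all 9 points are filled and Krt14 is the only 1 to the left of 0.

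Trp63, the transcription factor of the list, was higher in mutants on either treatment. The log2 values were 9.18, 8.86 and 8.92 in wild type on vehicle, and 10.09, 9.91 and 10.03 in mutants on vehicle. On finasteride they were 8.56, 8.93, 8.45, 8.51 and 8.71 in wild type, and 9.74, 9.80, 9.86, 9.79 and 9.996 in mutants. Every mutant library was above every wild-type library. The difference was 1.02 ± 0.118 (SE) on vehicle (limma, adjusted p = 1.52e-05, and 0.00923 in 11 libraries) and 1.21 ± 0.092 on finasteride (limma, adjusted p = 3.04e-08, and 0.000125). The 2 transcript families of Trp63, with and without the transactivation domain, are not separate in these values.

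With finasteride Trp63 fell in wild type by 0.35 ± 0.106 (limma, adjusted p = 0.0157), though the highest finasteride library (8.93) lay above the lowest 2 vehicle libraries. This call was lost without wild-type vehicle library 1 (-0.26, adjusted p = 0.106), in the 11 libraries (adjusted p = 0.151) and with only these groups' libraries in the fit (adjusted p = 0.0586). In mutants the drug difference was -0.17 ± 0.106 (limma, adjusted p = 0.191), or -0.31 with libraries centred on their median (adjusted p = 0.0214), and the interaction was 0.18 ± 0.150 (adjusted p = 0.315). From the highest to the lowest, the group means were 10.01 in mutants on vehicle, 9.84 in mutants on finasteride, 8.99 in wild type on vehicle and 8.63 in wild type on finasteride. In whole-prostate RNA a change in the number of basal cells and a change in RNA per cell cannot be told apart, for Trp63 as for every gene below.

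Genes linked to p63 in epithelia, such as desmosome, adhesion and transcription factor genes, were taken from a list of 12, of which 11 were tested. On vehicle 5 were higher and 2 lower in mutants, with a median of 0.37. The higher genes included Tfap2c, a transcription factor of surface ectoderm (1.15 ± 0.15), Perp, a desmosome protein that p63 controls (0.89 ± 0.15), and Pkp1, a desmosome plaque protein (0.87 ± 0.13). On finasteride 7 were higher and 2 lower in mutants (median 0.63), with Fermt1 (kindlin-1, an integrin activator) at 1.73 ± 0.26, Snai2 at 1.11 ± 0.16 and Cdh3 (P-cadherin) at 0.63 ± 0.11. All of these passed the test in 11 libraries as well, with adjusted p-values between 0.00464 and 0.0364. Fermt1 went the other way on vehicle, with group means of 7.72 in mutants and 8.95 in wild type. In the 11 libraries 0 genes of the list were called lower in mutants on vehicle.

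Finasteride in wild type raised 2 of the 11 p63-linked genes and lowered 4 (median -0.31). Tfap2c rose by 1.22 ± 0.14, whereas Fermt1 (-1.63 ± 0.30), Zfp750 (-1.23 ± 0.22) and Perp (-0.69 ± 0.14) fell. In mutants 1 rose (Fermt1, 1.33 ± 0.30) and 2 fell, among them Perp by 0.90 ± 0.14 (median 0.16). The interaction called 4 higher and 2 lower (median 0.13). Over the 11 libraries the counts of higher and lower p63-linked genes were 3 and 0 for genotype on vehicle, 7 and 0 for genotype on finasteride, 1 and 2 for the drug in wild type, 0 and 1 for the drug in mutants and 2 and 1 for the interaction. With 11 libraries the fall of Perp in wild type (limma, adjusted p = 0.0523) and the rise of Fermt1 in mutants (0.066) did not pass. The interaction of Perp was -0.21 ± 0.20 (limma, adjusted p = 0.382), and the drug changes of Fermt1 had opposite signs (interaction 2.95 ± 0.42, limma, adjusted p = 3.66e-05).

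Bcl11b, the other transcription factor, had low deposited values and its largest drug change was in mutants on finasteride. The values were 4.37, 3.34 and 3.59 in wild type on vehicle, and 3.75, 3.71, 2.64, 3.21 and 2.54 in wild type on finasteride. In mutants they were 3.86, 4.12 and 4.17 on vehicle, and 5.72, 5.65, 5.55, 5.41 and 5.85 on finasteride. The 5 mutant finasteride libraries lay above all 11 others, and the wild-type vehicle values overlapped with those of the other 2 groups. Bcl11b rose with the drug in mutants by 1.58 ± 0.298 (limma, adjusted p = 0.000506, and 0.0228 in 11 libraries) and was 2.46 ± 0.258 higher in mutants than in wild type on finasteride (adjusted p = 8.81e-07, and 0.000525). The drug difference in wild type was -0.60 ± 0.298 (adjusted p = 0.123) and the genotype difference on vehicle 0.28 ± 0.333 (adjusted p = 0.554). Its interaction was 2.18 ± 0.421 (limma, adjusted p = 0.000491, and 0.0164). With a pseudocount of 16 these changes of Bcl11b were 1.01 for the drug in mutants, 1.37 for genotype on finasteride and 1.25 for the interaction, and after quantile normalization the first and last were 0.972 and 1.02 (adjusted p = 0.0117 and 0.0442). Changes of a gene this low may be understated on the deposited scale.

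T cell genes moved in the same libraries. Of 12 T cell markers, all tested, 10 rose and none fell with the drug in mutants (median 1.44), where 26.3% of tested genes rose. On finasteride 11 were higher and 1 lower in mutants (median 2.29), where 33.9% of tested genes were higher. Cd8a, a coreceptor of cytotoxic T cells, rose by 1.86 ± 0.28 with the drug in mutants, Cd2 by 1.49 ± 0.22 and Cd3e, a subunit of the T cell receptor complex, by 1.47 ± 0.23. Cd3e ranged from 6.16 to 6.84 in mutants on finasteride, 4.80 to 5.24 in mutants on vehicle, 3.11 to 4.19 in wild type on finasteride and 4.24 to 4.59 in wild type on vehicle. The summed log2 level of the 12 was 10.42 to 10.62 in mutants on finasteride and 8.83 to 9.89 in the other groups. Tcf7 has a large share of this sum. Its group means were 8.23 in wild type on vehicle, 9.21 in wild type on finasteride, 8.86 in mutants on vehicle and 8.76 in mutants on finasteride. With the drug in wild type 1 rose and 3 fell (median -0.37), on vehicle 5 were higher in mutants (median 0.60), and the interaction called 9 higher and 1 lower. Among the 11 libraries 8 rose with the drug in mutants, 10 were higher on finasteride, the interaction called 6 higher, and none passed in the other 2 comparisons. None of the 12 was at 0 in any group. Their part in the Bcl11b result was not tested.

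Keratins 5 and 15 moved together and keratin 14 did not follow them. Krt5 had values of 10.44, 10.59 and 10.44 in wild type on vehicle and 10.29, 9.73, 9.74, 9.94 and 10.20 on finasteride. In mutants it had 10.80, 10.89 and 10.78 on vehicle and 10.63, 11.22, 10.71, 10.84 and 10.81 on finasteride. All finasteride-treated wild-type libraries lay below all vehicle ones, and the mutant groups overlapped with each other. The fall with the drug in wild type was -0.51 ± 0.137 (limma, adjusted p = 0.00871, and 0.108 in 11 libraries). In mutants the drug difference was 0.02 ± 0.137 (adjusted p = 0.934). Krt5 was higher in mutants on finasteride by 0.86 ± 0.119 (adjusted p = 1.48e-05, and 0.0025), and on vehicle by 0.33 ± 0.154, which did not pass (adjusted p = 0.111). With only the vehicle libraries in the fit it passed there (adjusted p = 0.00355). Its interaction of 0.53 ± 0.194 (adjusted p = 0.0298, and 0.154 in 11 libraries) was lost without any 1 of wild-type vehicle library 2 (adjusted p = 0.07), wild-type finasteride library 3 (0.0509), mutant vehicle library 1 (0.0582) or mutant vehicle library 3 (0.0627), and with libraries centred on their median (0.32, adjusted p = 0.202).

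Krt15 ranged from 10.65 to 10.72 in wild type on vehicle, 10.20 to 10.62 in wild type on finasteride, 10.99 to 11.03 in mutants on vehicle and 10.85 to 11.68 in mutants on finasteride. It was higher in mutants on finasteride by 0.78 ± 0.123 (limma, adjusted p = 5.23e-05, and 0.00433 in 11 libraries). The other comparisons did not pass: 0.32 ± 0.158 for genotype on vehicle (adjusted p = 0.134), -0.31 ± 0.142 and 0.15 ± 0.142 for the drug in wild type and in mutants (0.0949 and 0.397), and 0.46 ± 0.20 for the interaction (0.0617). Genotype on vehicle passed with only the vehicle libraries in the fit (adjusted p = 0.00105), with array weights (0.000129) and without mutant finasteride library 2 (0.0266). The drug difference in wild type passed without that library (0.0165), after quantile normalization (0.0447) and with array weights (0.000878). The interaction passed after quantile normalization (0.00728), with array weights (0.00208), and without wild-type finasteride library 1 (0.0363) or mutant finasteride library 1 (0.0243) or 2 (0.0477).

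Krt14 was highest in wild type on finasteride and in mutants on vehicle. The values were 7.19, 7.82 and 7.55 in wild type on vehicle and 8.22, 8.03, 7.99, 8.13 and 8.40 in wild type on finasteride. They were 8.20, 8.60 and 8.44 in mutants on vehicle and 7.13, 7.92, 7.35, 7.58 and 7.47 in mutants on finasteride. The drug groups did not overlap with vehicle in either genotype, and the directions were opposite. Krt14 rose with the drug in wild type by 0.64 ± 0.170 (limma, adjusted p = 0.00874, and 0.111 in 11 libraries) and fell in mutants by 0.92 ± 0.170 (adjusted p = 0.000442, and 0.0372). The rise in wild type was lost without wild-type vehicle library 1 (0.47, adjusted p = 0.0658). The interaction was -1.56 ± 0.241 (limma, adjusted p = 7.9e-05, and 0.0114 in 11 libraries).

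Between genotypes, Krt14 was 0.89 ± 0.191 higher in mutants on vehicle (limma, adjusted p = 0.00236, and 0.0812 in 11 libraries) and 0.67 lower on finasteride (-0.67 ± 0.148, adjusted p = 0.00109, and 0.0353). Mutants on finasteride (mean 7.49) and wild type on vehicle (7.52) were at about the same level, and wild type on finasteride (8.16) and mutants on vehicle (8.41) overlapped in range.

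The balance between the partner keratins followed. Krt5 minus Krt14 in each library was 3.25, 2.77 and 2.89 in wild type on vehicle and 2.06, 1.70, 1.75, 1.81 and 1.796 on finasteride. In mutants it was 2.61, 2.29 and 2.34 on vehicle and 3.50, 3.31, 3.35, 3.26 and 3.34 on finasteride. The 4 groups did not overlap with each other, though the highest wild-type vehicle library and the lowest mutant finasteride library were close (3.25 and 3.26). The genes are not scaled for length, so the size of the difference in 1 group has no meaning on its own. The drug changed the group mean by -1.15 in wild type and by 0.94 in mutants. For the genotype comparison on finasteride the difference was 1.53 (two-sided exact permutation test, p = 0.00794, adjusted p = 0.0529), and for each drug comparison the p was 0.0357 (exact permutation test, adjusted p = 0.0714). Those are the smallest p-values that 5 against 5 and 3 against 5 libraries can give, and 3 against 3 cannot go below 0.1. Of 20 such tests over 5 gene pairs, 10 had an unadjusted exact permutation p under 0.05 and 0 passed after adjustment. These tests count the libraries close to an average as separate. Under the alternatives 0 passed as well. In the 11 libraries the groups were too small for any pair to reach a p under 0.05, so that alternative could not decide. There the adjusted p of Krt5 minus Krt14 for genotype on finasteride reached 0.364 (exact permutation test).

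Krt14 minus Krt15 gave the same picture from the other partner, with changes of 0.94 in wild type and -1.07 in mutants on the drug, and -1.45 between genotypes on finasteride. Krt5 minus Krt15 stayed within a narrow range, from -0.48 to -0.12 over all 16 libraries, with group means of -0.20, -0.41, -0.19 and -0.33 in wild type on vehicle, wild type on finasteride, mutants on vehicle and mutants on finasteride. Trp63 minus Krt5 had means of -1.51, -1.35, -0.81 and -1.004 in the same order. Of 100-base stretches of Krt5 transcripts, 2.38% were shared with Krt6a or a predicted gene, and of Krt14, 2.88% with Krt16, while 0 were shared in the other 7 members. Krt6a and Krt16 had group means of at most 3.52 and 2.21.

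**Figure D3:**
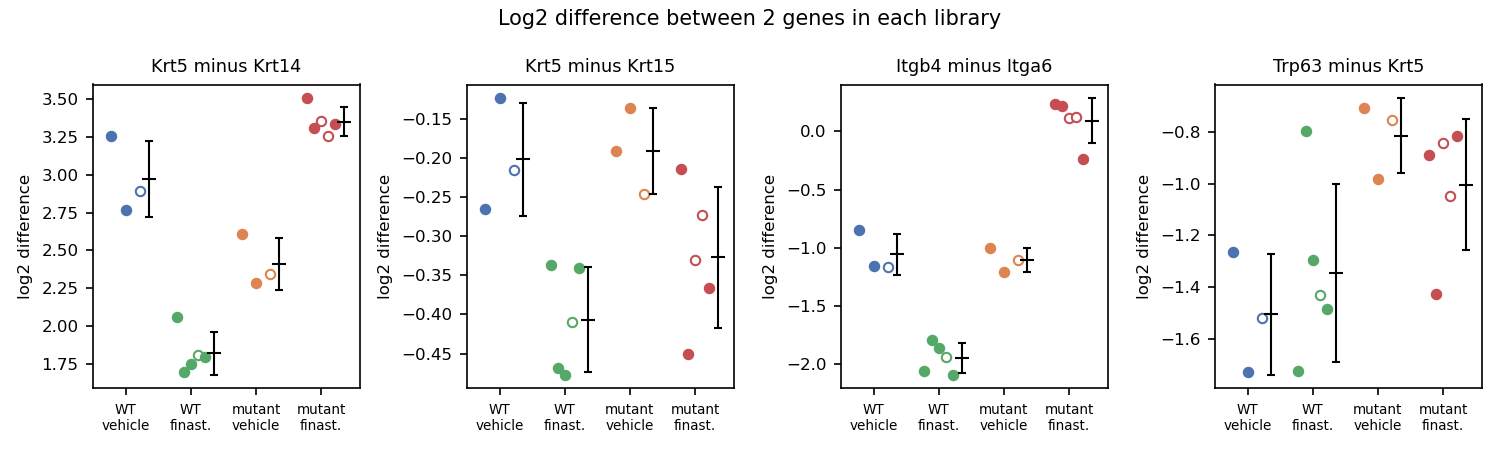
Log2 difference between 2 genes in each library (y axis), by group, with the group mean ± SD; open circles are the 5 libraries close to an average of 2 others. Krt5 minus Krt14 lies at 1.70 to 2.06 in wild type on finasteride and 3.26 to 3.50 in mutants on finasteride, and Itgb4 minus Itga6 at -2.09 to -1.79 and -0.24 to 0.23.

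Other basal and stress keratins and surface markers formed a list of 10, of which 5 were tested; Krt6a, Krt6b, Krt16, Krt13 and Aqp3 were below the filter. Krt17, a stress keratin, was 1.17 ± 0.28 higher in mutants on vehicle (limma, adjusted p = 0.00558, and 0.0773 in 11 libraries). Cd44, an adhesion receptor, fell with the drug in wild type by 2.02 ± 0.24 and rose by 2.01 ± 0.24 in mutants. Over the list the counts of higher and lower were 2 and 2 for genotype on vehicle (median -0.86), 0 and 4 for the drug in wild type (-0.86), 4 and 0 for the drug in mutants (1.71), 5 and 0 for genotype on finasteride (2.20) and 4 and 0 for the interaction (2.45). When only 11 libraries were used, they were 0 and 2, 0 and 3, 3 and 0, 5 and 0, and 4 and 0.

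Keratins 5 and 14 are also made by urothelium and squamous epithelium. Of 8 urothelial markers 5 were tested, and 3 were higher and 1 lower in mutants on vehicle (median 1.35), among them Upk2, a plaque protein of urothelium, at 3.17 ± 0.31, Upk1b at 1.94 ± 0.24 and Gata3 at 1.35 ± 0.14. The 1 that was lower was Upk3b, another plaque protein (-4.41 ± 0.857), and Upk1a differed by -0.39 ± 0.480 (limma, adjusted p = 0.575). The counts of higher and lower were 1 and 1 for the drug in wild type, 1 and 2 for the drug in mutants, 3 and 0 for genotype on finasteride and 2 and 2 for the interaction. In the 11 libraries they were 3 and 1 for genotype on vehicle, 1 and 1, 1 and 1, 3 and 0, and 2 and 1. The summed log2 level was 13.56 to 13.83 in wild type on vehicle, 13.51 to 13.77 in wild type on finasteride, 14.51 to 15.12 in mutants on vehicle and 14.04 to 15.01 in mutants on finasteride. Upk3a and Krt20 had group means of at most 3.36 and 2.62. The part of these genes in the keratin results was not tested.

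Of 11 squamous keratinocyte markers 6 were tested. Sprr1a, a precursor of the cornified envelope, was 2.22 ± 0.21 higher in mutants on vehicle, rose with the drug by 2.0 ± 0.19 in wild type and by 1.20 ± 0.19 in mutants. Lor (loricrin) was 1.44 ± 0.23 higher in mutants on vehicle and 2.08 ± 0.18 on finasteride. The squamous keratins Krt1 and Krt10 had group means of 5.37 and 6.29 in wild type on vehicle and 4.39 and 6.09 in mutants on vehicle. On finasteride these means were 4.99 and 6.18 in wild type and 5.78 and 6.10 in mutants. The counts of higher and lower were 2 and 1, 1 and 0, 4 and 0, 5 and 0, and 3 and 1 for genotype on vehicle, the drug in wild type, the drug in mutants, genotype on finasteride and the interaction. Over the 11 libraries they were 2 and 1, 1 and 0, 2 and 0, 5 and 0, and 1 and 0. The summed log2 level was 8.96 to 9.20 in wild type on vehicle, 9.20 to 9.70 in wild type on finasteride, 9.67 to 9.75 in mutants on vehicle and 10.41 to 10.97 in mutants on finasteride. Ivl, Flg, Sprr1b and Sprr3 had group means of at most 2.47. The part of these genes in the basal results was not tested.

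Itgb4, the hemidesmosomal integrin subunit, changed with the drug in both genotypes, in opposite directions. It was 9.78, 9.87 and 9.80 in wild type on vehicle and 9.30, 9.45, 9.29, 9.32 and 9.27 on finasteride. In mutants it was 9.85, 9.74 and 9.72 on vehicle and 10.67, 10.61, 10.53, 10.59 and 10.33 on finasteride. The vehicle groups of the 2 genotypes overlapped, and each finasteride group stood clear of all other groups, below them in wild type and above them in mutants. Itgb4 fell by 0.49 ± 0.074 in wild type (limma, adjusted p = 0.00023, and 0.0317 in 11 libraries) and rose by 0.78 ± 0.074 in mutants (adjusted p = 1.18e-06, and 0.00321). The genotype difference was -0.04 ± 0.082 on vehicle (adjusted p = 0.726) and 1.22 ± 0.064 on finasteride (adjusted p = 6.02e-10, and 2.28e-05), and the interaction 1.26 ± 0.104 (adjusted p = 2.85e-07, and 0.00109). An exon of Itgb4 overlaps an opposite-strand gene, as 1 of Krt5 does, and whether counting used strand is not given in the sources used here.

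Its partner Itga6 moved the other way. Itga6 rose with the drug in wild type by 0.40 ± 0.08 (limma, adjusted p = 0.00174) and fell in mutants by 0.42 ± 0.08 (adjusted p = 0.000762), and its interaction was -0.82 ± 0.12 (adjusted p = 3.94e-05). Itgb4 minus Itga6 was -0.85, -1.15 and -1.16 in wild type on vehicle and -1.002, -1.21 and -1.10 in mutants on vehicle. On finasteride it was -2.06, -1.79, -1.86, -1.93 and -2.09 in wild type and 0.23, 0.22, 0.12, 0.13 and -0.24 in mutants. The 2 vehicle groups overlapped and the 2 drug groups lay on either side of them, 2.04 apart (two-sided exact permutation test, p = 0.00794, adjusted p = 0.0529). Under the alternatives that adjusted p reached 0.364 (exact permutation test), though the groups of the 11 libraries were too small for any pair to pass.

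Col17a1, the collagen of the hemidesmosome, ranged from 7.59 to 7.85 in wild type on vehicle, 7.83 to 8.34 in wild type on finasteride, 8.79 to 9.02 in mutants on vehicle and 8.19 to 8.84 in mutants on finasteride. It was higher in mutants on vehicle by 1.15 ± 0.164 (limma, adjusted p = 9.22e-05, and 0.0124 in 11 libraries) and on finasteride by 0.38 ± 0.127 (adjusted p = 0.0166, and 0.0696). The second of these was lost after median centring of the libraries (0.25, adjusted p = 0.115) and after quantile normalization (0.24, adjusted p = 0.153). Col17a1 fell with the drug in mutants by 0.42 ± 0.146 (adjusted p = 0.0285, and 0.208 in 11 libraries), a call lost without mutant vehicle library 2 (adjusted p = 0.124) or 3 (0.0534), or mutant finasteride library 1 (0.0652) or 3 (0.0671). In wild type the drug difference was 0.35 ± 0.146 (adjusted p = 0.0652). The interaction was -0.77 ± 0.207 (limma, adjusted p = 0.00536, and 0.0782).

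The other hemidesmosome and laminin-332 genes were given by a list of 9, all tested. Lama3, which encodes the laminin α3 chain, was 1.70 ± 0.20 higher in mutants on vehicle, rose with the drug by 0.99 ± 0.18 in wild type and fell by 2.11 ± 0.18 in mutants (interaction -3.11 ± 0.25, limma, adjusted p = 2.11e-07). The signs of Lama3 were thus those of Itga6 and Krt14 in both drug comparisons, and opposite to those of Itgb4. Itga3, another laminin receptor subunit, was 0.81 ± 0.10 higher in mutants on vehicle and Dst, a plaque protein that anchors keratin filaments, 0.74 lower (-0.74 ± 0.14).

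Over these 9 genes the counts of higher and lower were 3 and 2 for genotype on vehicle (median 0.01), 2 and 1 for the drug in wild type (-0.06), 3 and 3 for the drug in mutants (0.12), 4 and 3 for genotype on finasteride (0.18), and 2 and 2 for the interaction (0.04). With 11 libraries they were 2 and 1, 2 and 0, 1 and 2, 2 and 3, and 1 and 2. The medians were near those of all tested genes. Plec, which encodes the linker plectin, differed by -0.06 ± 0.10 with genotype on vehicle and rose by 0.32 ± 0.09 with the drug in mutants (limma, adjusted p = 0.00963, and 0.131 in 11 libraries).

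**Figure D4:**
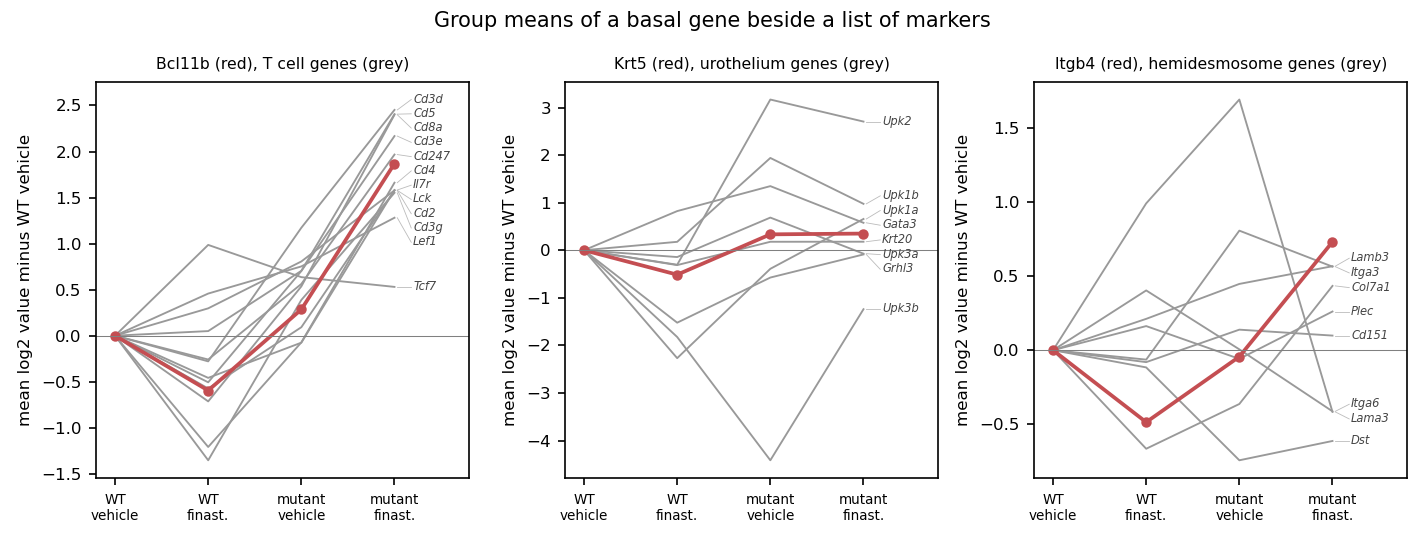
Mean log2 value of each group minus that of wild type on vehicle, for a basal gene (red) and the genes of a list that are named beside the lines (grey): Bcl11b with T cell genes, Krt5 with urothelium genes and Itgb4 with hemidesmosome and laminin-332 genes, tested or not. Most T cell genes and Bcl11b are highest in mutants on finasteride, while Itga6 and Lama3 end below 0 where Itgb4 ends above it.

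Jag2, a Notch ligand, was higher in mutants on both treatments. It ranged from 9.02 to 9.25 in wild type on vehicle, 9.31 to 9.53 in wild type on finasteride, 9.91 to 10.21 in mutants on vehicle and 10.05 to 10.62 in mutants on finasteride. Every mutant library was above every wild-type library, by 0.90 ± 0.128 on vehicle (limma, adjusted p = 9.28e-05, and 0.0182 in 11 libraries) and 0.84 ± 0.099 on finasteride (adjusted p = 2.95e-06, and 0.000599). The drug differences of 0.29 ± 0.115 in wild type (adjusted p = 0.0526) and 0.24 ± 0.115 in mutants (0.095) did not pass, and the interaction was -0.05 ± 0.162 (0.794). In wild type the 2 groups nevertheless did not overlap, and the drug difference passed with only these groups' libraries in the fit (adjusted p = 0.0318). In mutants it passed after quantile normalization (0.0174), with array weights (0.0152) and without mutant finasteride library 5 (0.0395).

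Jag1, the other jagged ligand, also was higher in mutants, by 0.73 ± 0.11 on vehicle and 1.01 ± 0.08 on finasteride. It ranged from 8.46 to 8.61, 8.07 to 8.42, 9.02 to 9.46 and 9.17 to 9.29 in wild type on vehicle, wild type on finasteride, mutants on vehicle and mutants on finasteride. Of 21 Notch pathway genes 20 were tested. On vehicle 5 were higher and 1 lower in mutants (median -0.09), including the receptor Notch1 (0.59 ± 0.12; limma, adjusted p = 0.00132, and 0.0747 in 11 libraries). The drug raised 3 and lowered 4 in wild type (median -0.14), and raised 11 and lowered 5 in mutants (median 0.61). There Hes1, a target of Notch signals, rose by 0.79 ± 0.07 and Lfng, an enzyme that modifies the receptors, by 1.18 ± 0.15. In mutants the protease gene Adam10 (-0.50 ± 0.09) fell. Hey1, another target, went the other way from Hes1. It ranged from 7.72 to 8.07 in mutants on vehicle and 6.87 to 7.34 in mutants on finasteride. On finasteride 12 were higher and 4 lower in mutants (median 0.56), and the interaction called 9 and 5 (median 0.71). Among the 11 libraries the counts of higher and lower Notch genes were 1 and 0 for genotype on vehicle, 0 and 0 and 4 and 3 for the drug in wild type and in mutants, 10 and 2 for genotype on finasteride and 4 and 2 for the interaction.

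Lgals7 had the largest genotype difference on vehicle among the 9. It was 6.04, 6.07 and 5.95 in wild type on vehicle and 7.87, 7.93 and 8.09 in mutants on vehicle. On finasteride it was 6.64, 6.59, 6.65, 6.93 and 7.25 in wild type and 6.96, 8.86, 7.14, 7.52 and 7.49 in mutants. Both mutant groups lay mostly above both wild-type groups, and mutant finasteride library 2 stood above the rest of its group. The difference on vehicle was 1.94 ± 0.344 (limma, adjusted p = 0.000559, and 0.0403 in 11 libraries) and on finasteride 0.78 ± 0.266 (adjusted p = 0.0177, and 0.0537), the latter lost after quantile normalization (0.36, adjusted p = 0.324). Without mutant finasteride library 2 the difference on finasteride was 0.468 (adjusted p = 0.0118), with array weights 0.437 (0.0098), and without that library and the 5 close to an average 0.446 (0.135).

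The drug differences of Lgals7 were 0.79 ± 0.307 in wild type (limma, adjusted p = 0.0514) and -0.37 ± 0.307 in mutants (adjusted p = 0.343). Without mutant finasteride library 2 the difference in mutants was -0.68 (adjusted p = 0.00346) and that in wild type had an adjusted p of 0.0014. The interaction of -1.16 ± 0.435 (adjusted p = 0.0329) had an adjusted p of 0.304 in 11 libraries and of 0.0502 to 0.0709 in 9 of the 16 fits that left out 1 library each. After quantile normalization it was -1.78. The 9 libraries were wild-type vehicle 1, 2 and 3, wild-type finasteride 4 and 5, mutant vehicle 2 and 3, and mutant finasteride 1 and 3.

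The other galectins went a different way from Lgals7 on vehicle. Of 8 listed, 7 were tested, and 6 were lower in mutants on vehicle and none higher (median -0.87), with Lgals1 at -0.87 ± 0.20. In 11 libraries none of these passed, and none of the falls with the drug in wild type did. With the drug 5 fell in wild type (median -0.81) and 5 rose in mutants (median 1.09), where Lgals3 rose by 2.53 ± 0.23. On finasteride 4 were higher in mutants (median 1.03), and the interaction called 6 higher (median 1.72). When only 11 libraries were used, 4 rose with the drug in mutants, 4 were higher on finasteride and the interaction called 4.

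Markers of other prostate tissues moved with the groups as well. Of 12 luminal epithelium markers the counts of higher and lower were 3 and 3 for genotype on vehicle, 4 and 2 for the drug in wild type, 2 and 3 for the drug in mutants, 4 and 4 for genotype on finasteride and 1 and 4 for the interaction, with medians between -0.25 and 0.14. In the 11 libraries the calls in either direction were 1, 0, 2, 6 and 2. Krt8 and Krt18, the luminal keratins, had group means between 12.11 and 12.62 and between 13.42 and 14.09. Pbsn, an androgen-driven secretory gene, was 2.54 lower in mutants on vehicle (-2.54 ± 0.25) and in mutants fell by 4.61 ± 0.22 with the drug. The summed luminal level, in which Pbsn has a large share, was 18.41 to 18.62 in wild type on vehicle and 16.25 to 16.72 in mutants on finasteride.

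In the same order of comparisons, the counts of higher and lower were 0 and 1, 1 and 0, 7 and 0, 1 and 0, and 2 and 0 of 7 smooth muscle genes, and 0 and 5, 0 and 4, 3 and 0, 5 and 0, and 5 and 0 of 6 fibroblast genes. They were 0 and 1, 0 and 7, 2 and 0, 5 and 0, and 6 and 0 of 7 seminal vesicle genes, and 1 and 3, 1 and 3, 3 and 0, 1 and 0, and 4 and 1 of 5 striated muscle genes. For 5 endothelial genes they were 0 and 1, 1 and 1, 4 and 0, 4 and 1, and 4 and 0. Over the 11 libraries the calls in either direction were 0, 0, 1, 0 and 0 for smooth muscle, 1, 3, 0, 0 and 4 for fibroblast, 0, 0, 0, 5 and 0 for seminal vesicle, 3, 0, 2, 0 and 3 for striated muscle, and 0, 1, 4, 5 and 3 for endothelial genes. The part of these tissues in the basal results was not tested.

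The 9 genes differed in how they varied with each other. Over the 16 libraries, Pearson's r was 0.97 between Krt5 and Krt15, and 0.94 after the group means were taken out. Itgb4 and Bcl11b had r = 0.92 over all libraries and -0.00 within groups, so that their likeness lay between groups. Krt5 and Krt14 had the reverse, r = -0.13 over all libraries and 0.77 within groups. Col17a1 and Lgals7 had r = 0.91 and 0.69, and Trp63 and Krt5 0.83 and -0.17. These describe libraries that share group means, and 5 of which are close to averages of others.

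Of 11275 genes with a mean log2 value of at least 6, those whose values were most like Trp63 over the 16 libraries were Prps2 and Jag1 (both r = 0.98), Nedd4l, Kcnj15, Dok1, Jak2, Fanca and Qsox1. Those most like Krt5 were Srebf1 (0.96), Rtkn, Mvb12b, Chad, Ctso, Fam211b, Scd2 and Ifitm10 (0.94). Those most like Krt14 were Acad10 (0.97), Tmed3, Ormdl3, Cyb5b, Fam211a, Afg3l1, Wdr11 and Sptb (0.94). No gene was on more than 1 of these lists.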

How the data were processed

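Poly-A selected RNA of whole prostate was sequenced by the authors from TruSeq libraries on a HiSeq2000, per the labels' protocols. The deposited values are normalized expression in log2, a base inferred from the library totals, and the scale may be shrunken at low values, which would understate changes of low genes and was not tested. The submitters' processing notes name CASAVA 1.8.2, TopHat, Cufflinks, DESeq, DESeq2 and build mm9, with no role for each. Read depth is unknown, so no counting interval was given. 0 columns of sample values were left unused.

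limma 3.58.1 in R 4.3.3, with a variance trend, was fitted with 1 mean per group to 16895 genes (mean of at least 10 after taking values out of log2). Benjamini-Hochberg adjustment covered those genes, at a threshold of 0.05. Pairs of genes were compared by exact permutation tests (SciPy 1.17.1). A library was taken as close to an average of 2 others when the SD of the difference, over genes with log2 values of at least 8, was under 0.1 with both weights at least 0.2. Promoter windows and their coordinates came from RefSeq.

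The members, the gene lists and the tests were chosen with earlier results of these data known. By the rule for named genes all 9 members were reported, and list genes were drawn from the 3 with the lowest p among those called and the 1 with the highest mean value in each comparison; lists of other tissues are given by counts. Krt17, Krt8, Hey1, Krt1, Krt10, Tcf7 and the genes below the filter were added after their values were seen. The 8 genes most like Trp63, Krt5 and Krt14 were ranked by Pearson correlation. The mutated gene is not reported here. Alternatives were other filters, pseudocounts, normalizations, weights and sets of libraries.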

Additional observations from a re-analysis of the deposited data

Results flagged for a closer look

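The drug's effect differed between genotypes by a test of the difference itself (limma's interaction, finasteride effect in mutants minus that in wild type) for 6 of the 9 basal genes. It was 2.18 for Bcl11b, 1.26 for Itgb4 and 0.53 for Krt5, and -1.56 for Krt14, -1.16 for Lgals7 and -0.77 for Col17a1. In the 11 libraries Bcl11b, Itgb4 and Krt14 passed that test, and Krt5, Lgals7 and Col17a1 did not (adjusted p = 0.154, 0.304 and 0.0782).

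Of 18 groups of 5 libraries examined for 1 library far from the rest, 1 had such a library, Itgb4 in wild type on finasteride, where library 2 had a log2 value of 9.45 and the others 9.27 to 9.32. Chance marks about 1 in 20 such groups.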

How the results depend on the processing

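Of 1588 values of single genes or pairs under an alternative, 1490 kept their direction and side of the threshold, 38 no longer passed, 44 newly passed and 16 turned sign; those of a gene stand beside it or are covered by these counts, and the cause was not tested. With array weights Trp63 passed for the drug in mutants (adjusted p = 0.0072) and the interaction (0.0401). For finasteride in wild type, the count of members higher (1 in the full analysis) was 3 with a mean of at least 50, 4 with libraries centred on their median, 3 after quantile normalization, 4 with array weights, 3 with only the groups compared and 0 without the 5 libraries close to an average, and 0 to 4 when 1 library was left out. The count lower (3) was 5 with array weights and 1 without the 5 libraries. For finasteride in mutants, the count higher (2) was 1 with a mean of at least 50, where Bcl11b was not tested. The count lower (2) was 4 with array weights, 1 without the 5 libraries, 1 also without mutant finasteride library 2 (chosen after seeing the data), and 1 to 3 when 1 library was left out. With array weights 8 members were higher for genotype on vehicle (5) and 5 for the interaction (3); those weights stopped before they converged. Without the 5 libraries 1 member was lower in the interaction (3).

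These changes, which did not pass the test as reported, turned sign. Itgb4 for genotype on vehicle was 0.0344 after median centring. Krt5 for the drug in mutants was -0.120 after median centring, -0.0283 with array weights, -0.126 without the 5 libraries and mutant finasteride library 2, and -0.0794 to 0.0687 when 1 library was left out. The interaction of Trp63 was -0.0249 after median centring. That of Jag2 was 0.0946 after quantile normalization, 0.0730 without the 5 libraries, and -0.137 to 0.0240 when 1 library was left out. For genotype on vehicle Krt5 minus Krt15 was -0.0218 to 0.0492, and Itgb4 minus Itga6 -0.103 to 0.0531, when 1 library was left out. Median centring moved the median of all genes by 0.14 for the drug in mutants and 0.13 for genotype on finasteride. No paired analysis was possible because the running numbers in the sample names pair no libraries. Depth is unknown, so its limit on low genes such as Bcl11b could not be given.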
